A study of Mus musculus with 2 samples.

Results

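The genes described here make pulmonary surfactant and the lamellar bodies that store it: Sftpa1, Sftpb, Sftpc, Sftpd, Abca3, Lamp3, Napsa, Slc34a2 and Lpcat1, together with the lung epithelial chemokine gene Cxcl15. They were taken as a fixed list of 10 genes, and every probe set (the array feature that reads 1 transcript or a few related ones) annotated to one of them was used. The array had 18193 genes that could be read by a probe set annotated to them alone, and 9 of these were on the list, with 19 probe sets. Lamp3, which encodes a membrane protein of lamellar bodies, shared its 1 probe set with Ppid, a cyclophilin gene. That probe set went from 1607.6 to 1374.1 intensity units, a log2 ratio of -0.17, which cannot be assigned to either gene, so Lamp3 is in no count below.

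Surfactant is a film of lipid and protein that lowers surface tension in the alveoli and keeps them open. It is made by alveolar type 2 cells, which assemble it in lysosome-related organelles called lamellar bodies and secrete it into the airspace. SP-B and SP-C are small hydrophobic proteins that spread the lipid film, whereas SP-A and SP-D are collectins, soluble lectins that bind microbes and take part in surfactant turnover. Because these transcripts are among the most abundant of the lung, their probe sets lie near the bright end of an expression array, where it matters how the measured ratio depends on brightness.

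The RNA came from whole lungs of C57BL/6 mice that had received 500000 Lewis lung carcinoma (LLC) cells in 200 µL through a tail vein at 6 to 8 weeks of age and were examined on day 19. LLC is a mouse lung carcinoma line that forms tumours in the lung after such an injection. In the control group the cells were vector-transfected, and in the other group they overexpressed TDAG8, a proton-sensing receptor encoded by Gpr65. Both groups therefore carried tumour cells, and no lung without LLC cells was included. The overexpression was in the injected tumour cells, whereas the surfactant genes were read from the whole organ. The sources used here do not say whether the transfected cells were 1 clone or a mixture. RNA of 10 mice was pooled per group and measured on 1 Affymetrix array, so each value below is that of 1 array, with no spread between mice, no error and no significance test. Comparisons describe these 2 pooled RNAs only, and precision is limited by the number of arrays.

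The deposited values were intensities on a linear scale, and reached 10112 on the control array and 8731 on the TDAG8 array. The median of each array, 26.3 in the control and 24.3 in the TDAG8 array, served as a floor for dim signals, and 11044 genes lay above it on both arrays. The log2 ratio is TDAG8 over vector control, shifted by the median of those genes, -0.06, so that a negative value means lower in the lungs with TDAG8-overexpressing cells. Intensities are printed as deposited and folds after that shift. Intensity depends on the probe set as well as on the RNA, so the brightness of different genes is used here to place a ratio on the scale of the array, not to rank the genes by amount of RNA. Gpr65 itself went from 32.3 to 73.9, 2.38-fold higher, close to the floor. Lung markers were present on both arrays: Scgb1a1, the club cell secretory protein, went from 10112 to 8731, Ager, a receptor of alveolar type 1 cells, from 6541 to 4397, and Nkx2-1, the lung epithelial transcription factor, from 69.5 to 39.8.

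RefSeq promoter windows of assembly GRCm38.p6 were available for 7 of the 10 genes, and none for Sftpc, Sftpd and Napsa. The 250 bases before the start of 4 of them are shown because Sftpb and Sftpa1 hold the 6-base core CTCAAG, a form of the site bound by NKX2-1, whereas the windows of the lamellar body transporter Abca3 and of Cxcl15 do not. Capitals mark the core, which was searched on both strands (CTTGAG on the other), and each sequence is on the strand of its gene, here the plus strand.
Sftpb, chr6:72304360-72304609: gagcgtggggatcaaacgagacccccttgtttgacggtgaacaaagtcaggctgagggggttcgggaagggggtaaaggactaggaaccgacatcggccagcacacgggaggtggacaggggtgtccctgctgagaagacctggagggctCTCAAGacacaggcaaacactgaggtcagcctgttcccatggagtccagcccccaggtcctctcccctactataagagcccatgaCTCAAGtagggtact
Sftpa1, chr14:41131538-41131787: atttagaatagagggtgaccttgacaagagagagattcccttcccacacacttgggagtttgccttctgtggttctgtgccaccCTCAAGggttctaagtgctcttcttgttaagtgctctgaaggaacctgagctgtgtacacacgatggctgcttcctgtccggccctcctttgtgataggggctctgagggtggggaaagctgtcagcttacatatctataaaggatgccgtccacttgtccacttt
Abca3, chr17:24351773-24352022: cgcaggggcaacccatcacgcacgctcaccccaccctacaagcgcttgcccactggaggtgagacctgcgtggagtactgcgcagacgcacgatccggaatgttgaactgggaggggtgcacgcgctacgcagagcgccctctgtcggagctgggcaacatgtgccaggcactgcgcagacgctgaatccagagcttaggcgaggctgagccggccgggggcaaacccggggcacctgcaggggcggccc
Cxcl15, chr5:90794284-90794533: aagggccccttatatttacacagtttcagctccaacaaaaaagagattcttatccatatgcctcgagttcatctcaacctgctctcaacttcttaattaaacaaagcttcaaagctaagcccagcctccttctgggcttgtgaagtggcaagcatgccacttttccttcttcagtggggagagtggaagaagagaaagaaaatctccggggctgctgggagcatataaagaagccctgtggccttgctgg

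In the Sftpb window the core began 100 and 15 bases before the start, and in Sftpa1 166 bases before it. So 2 of 7 windows held the core, against 13.3% of all 32851 windows of that length in the table. The FOXA core TGTTTAC occurred in 1 of the 7, that of Lamp3, and in 3.17% of all windows. The C/EBP pattern TTNNGNAA occurred in Sftpb and in Slc34a2, the latter with TTGCGCAA, which reads the same on both strands, 48 bases before the start, and in 36.8% of all windows. None of the 3 patterns overlapped another in these windows. GC content ran from 42.4% in Lamp3 to 69.6% in Slc34a2, with a median of 52.4% over all windows. A match of letters is a description and does not show that a factor was bound.

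All 9 measured genes had lower intensities in the lungs with TDAG8-overexpressing cells, and all by a modest amount. Their median log2 ratio was -0.48, or 1.39-fold lower, and the single values ran from -0.58 for Napsa to -0.12 for Sftpc, with an SD over the 9 genes of 0.15. All 9 lay below 0, as did 50.1% of the 11949 genes above the floor on at least 1 array. At least 1.2-fold lower were 8 of 9, against 29.5% of all genes, with Sftpc as the exception. None was at least 1.5-fold lower (12.1% of all genes) or 2-fold lower (1.19%), and none was 2-fold higher (5.41%). Napsa and Lpcat1 lay just short of the 1.5-fold limit, and both passed it without centring, after quantile normalization, after loess centring and with the higher floor. In bulk RNA, fewer of the cells that express these genes and less of these RNAs per cell cannot be told apart. Nor can either be told apart from a larger share of RNA from other cells, such as tumour cells.

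The hydrophobic surfactant proteins stood at different ratios. Sftpc, whose product is made by type 2 cells alone, went from 7475.5 to 6605, a log2 ratio of -0.12 and 1.09-fold lower. It had the smallest difference and the brightest probe set of the list, ranking 5 in brightness among the 11044 genes. Its other probe set lay below the floor on both arrays, at 4.7 and 9.5, and carries no information on the gene. Sftpb, whose product is required for breathing at birth, went from 5825.4 to 3908, a log2 ratio of -0.52 and 1.43-fold lower. Sftpb was thus lower by more than Sftpc on the same 2 arrays, and its 1 probe set was also among the 50 brightest genes, at rank 47.

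Both collectins were lower by about the same factor. Sftpa1, the gene of SP-A, went from 6848.8 to 5012, a log2 ratio of -0.39, and Sftpd, the gene of SP-D, from 4827.8 to 3508.4, a log2 ratio of -0.40. Sftpa1 had a second, dimmer probe set, which went from 3168.1 to 2051 and gave -0.57. The dimmer probe set of Sftpa1 therefore read a larger difference than the brighter one, with both below 0. The name of the brighter one marks it as able to match more than 1 transcript, so the 2 may differ in more than brightness. With probe sets of such names left out, Sftpa1 was at -0.55. Over the 4 surfactant protein genes the median was -0.40.

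Genes of the lamellar body and of its lipid supply lay close together when each was read by its brightest probe set. Abca3, the transporter that moves phospholipid into lamellar bodies, went from 1006.8 to 694.2, a log2 ratio of -0.48. A second probe set of Abca3 went from 401.5 to 269.7 and gave -0.52, close to the first, and the third lay below the floor on both arrays at 22.8 and 16.2. Napsa, an aspartic protease that trims the SP-B precursor, went from 2180.6 to 1397.2, a log2 ratio of -0.58.

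A dim second probe set of Napsa went from 53.3 to 23.5, just under the floor of the TDAG8 array, so it was at least 2.11-fold lower and was the one probe set of the list past 2-fold. Slc34a2, a sodium and phosphate cotransporter of the type 2 cell surface that takes up phosphate from the airspace, went from 4289.9 to 2904.3, a log2 ratio of -0.50. Lpcat1 encodes the acyltransferase that remodels phosphatidylcholine into the saturated form typical of surfactant. Its brightest probe set went from 2207.5 to 1420.1, a log2 ratio of -0.58.

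Further probe sets of Lpcat1 did not all give the same size of difference. One went from 1895.2 to 1513.2 and gave -0.27, although it was nearly as bright as the first, and its name marks it as able to match more than 1 transcript. Another went from 1138.5 to 726.6 and gave -0.59. The last 2 probe sets of Lpcat1 lay below the floor on both arrays, with intensities between 1.0 and 13.1. The 4 genes Abca3, Napsa, Slc34a2 and Lpcat1 had a median of -0.54 and a range from -0.58 to -0.48. The range was wider with the mean over probe sets, which put Napsa at -0.81, Abca3 at -0.33 and Lpcat1 at -0.29. That mean takes in probe sets under the floor, with their values raised to it. The values for Abca3 and Lpcat1 are thus drawn toward 0 in part by probe sets that could not be read. The value for Napsa rests in part on a bound.

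Cxcl15, the chemokine lungkine of mouse lung epithelium that attracts neutrophils, went from 4526 to 3561.7, a log2 ratio of -0.29. Its second probe set went from 2881 to 1928.5 and gave -0.52. As for Sftpa1, the dimmer probe set had the larger difference. Of the 19 probe sets of the list, 14 lay above the floor on both arrays, and all 14 had ratios below 0. Counted by gene rather than by probe set, 50.1% of all genes above the floor on at least 1 array were below 0.

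**Figure D1:**
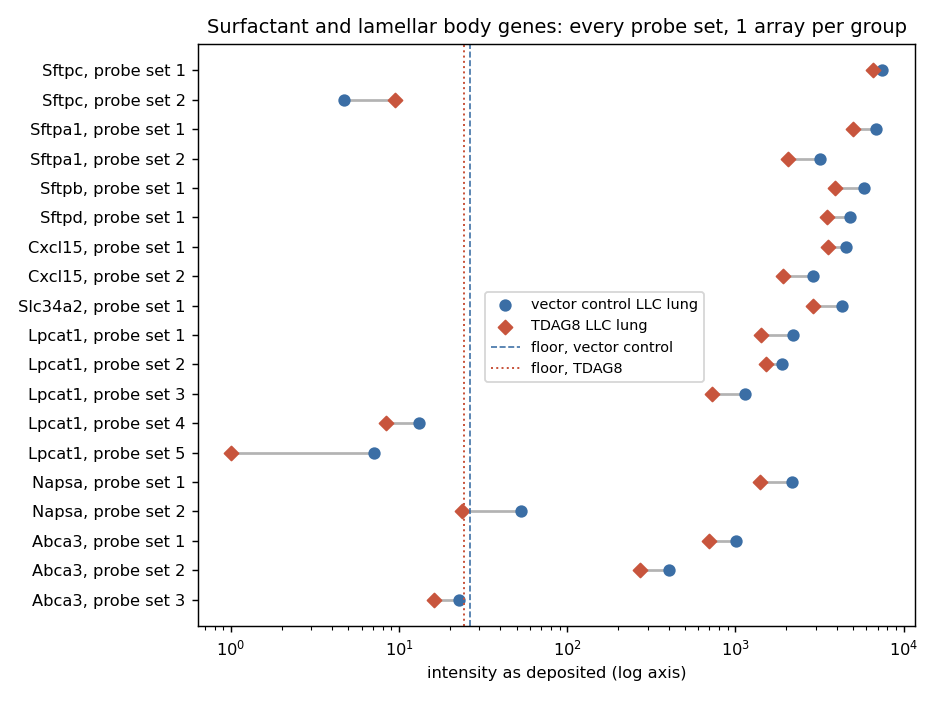
Intensity as deposited (horizontal log axis) of each of the 19 probe sets in the vector control array (circles) and the TDAG8 array (diamonds), 1 array each, with the floor of each array as a vertical line. Every probe set above both floors has its diamond to the left of its circle, by the smallest distance for the bright probe set of Sftpc.

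Ratio was next set against brightness. All 9 genes fell in the brightest of 10 equal groups of the 11044 genes, and 6 of them were among the 200 brightest. Within the list, brighter genes had ratios nearer to 0: the 6 genes with a geometric mean intensity of at least 2000 had a median of -0.40, and the other 3, Lpcat1, Napsa and Abca3, one of -0.58. Across the 9 genes, which were read on the same 2 arrays and are not independent, Spearman's rho between level and ratio was 0.63 and Pearson's r 0.62. The order was not strict, since Sftpb and Slc34a2 were bright and lay at -0.52 and -0.50, and Abca3 was the dimmest at -0.48.

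The genes stood low among the genes nearest in brightness too. The 200 other genes nearest in level to Sftpb had a median log2 ratio of 0.05 and an interquartile range from -0.24 to 0.26, and the neighbours of Sftpc and Sftpa1 gave the same values. For Napsa that range was from -0.28 to 0.39. Few genes are brighter than Sftpc, Sftpa1 and Sftpb, so their neighbours were mostly dimmer, and the 200 brightest genes reached down to 2240. Among the 25 brightest genes, at 5715 or above, the 25th percentile was -0.15 and the lowest value -0.39, that of Sftpa1. Among the 50 brightest they were -0.20 and -0.55. In all, 8 of 9 genes lay below the 25th percentile of their neighbours, and Sftpc lay within the interquartile range. Over the whole range of levels of the list, from 836 to 7027 intensity units, 882 genes had a median of 0.03, and 27.4% of them were at least 1.2-fold lower. The list and its neighbours are set side by side as a description, with no test.

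**Figure D2:**
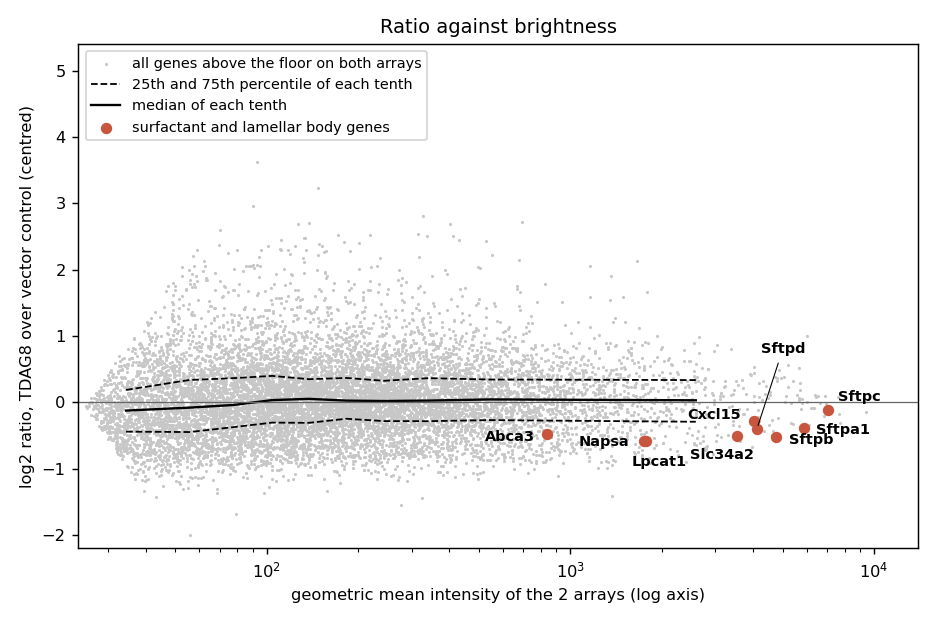
Log2 ratio of TDAG8 over vector control (vertical) against the geometric mean intensity of the 2 arrays (horizontal log axis) for 11044 genes (grey) and the 9 surfactant and lamellar body genes (red, named). Lines give the median and the 25th and 75th percentiles in 10 equal groups by brightness, and the 9 red points lie below 0 at the bright end, Sftpc nearest to it.

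Over all genes, with each read by its brightest probe set, the spread of ratios was much the same across the brighter groups and narrower among the brightest genes. The interquartile range of the log2 ratio was 0.67 over the 11044 genes, between 0.61 and 0.65 in groups 6 to 9, and 0.63 in the brightest group, which began at an intensity of 713. It was 0.60 for the 400 brightest genes, 0.55 for the 200 brightest, 0.48 for the 100 brightest, 0.36 for the 50 brightest and 0.23 for the 25 brightest, a set that holds Sftpc and Sftpa1. Ribosomal protein genes made up 8 of those 25 and 21 of those 50, and without them the ranges were 0.12 over 17 genes and 0.32 over 29 genes.

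These ranges depended on the probe sets used and on how dim signals were treated. With the mean over the probe sets of a gene, the interquartile range was 0.74 for the 400 brightest genes, 0.72 for the 200 brightest, 0.55 for the 50 brightest and 0.31 for the 25 brightest, against 0.51 over all genes. Without probe sets that can share sequence it was 0.70 for the 400 brightest, 0.71 for the 200 brightest and 0.62 for the 100 brightest. It was then 0.41 for the 50 brightest and 0.47 for the 25 brightest, against 0.66 over all genes, so the fall was not steady. The brightest of the 10 groups had 0.94 times the range of all genes as first read, but 1.29 times with the mean, 1.12 times with an offset in place of the floor and 1.04 times without shared probe sets. The mean takes in probe sets raised to the floor, and the offset shrinks dim ratios. With them the range over all genes was 0.51 and 0.55, against 0.67 as first read. The values of 1.29 and 1.12 therefore do not by themselves show a wider spread among bright genes.

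Differences of 2-fold were also rarer among bright genes. They made up 6.05% of the 11044 genes in either direction, 2.81% of the brightest group and 0.50% of the 200 brightest, which is 1 gene. That gene was Lgals1, a galectin of mesenchymal and tumour cells, with 4332.7 in the control and 8330.4 in the TDAG8 array, 2.00-fold higher. Lgals1 was named after its values were seen.

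The 10 brightest genes outside the list, from Scgb1a1 down, had ratios between -0.32 and 0.09. Gsn, an actin-severing protein, was at -0.32, the carbonyl reductase gene Cbr2 at -0.20, Tmsb4x at -0.17, Scgb1a1 at -0.15 and Tpt1 at -0.13. Eef1a1 was at -0.02, Fth1 at -0.01, Rps29 at 0.08, and Rpl38 and Rps28 at 0.09. Sftpc at -0.12 was thus within the range of these genes, close to Scgb1a1, another lung secretory gene.

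Genes with several probe sets can be read at different brightness, although the probe sets of a gene need not match the same transcripts. The brightest and the dimmest probe set above the floor on both arrays were set against each other. For Sftpa1, Cxcl15, Abca3 and Lpcat1, the 4 genes of the list with such a pair, the brighter probe set had the smaller difference each time: -0.39 against -0.57, -0.29 against -0.52, -0.48 against -0.52, and -0.58 against -0.59. For Abca3 and Lpcat1 the values nearly coincide. A further probe set of Lpcat1, between these in brightness and not in the pair, gave -0.27. Against it the brightest probe set of Lpcat1 had the larger difference. The name of the brighter probe set of Sftpa1 marks it as able to match more than 1 transcript.

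Over all genes this share was larger where the brighter probe set was brighter. The brighter probe set had the smaller absolute ratio in 48.2% of 2010 genes where it was under 200 intensity units and in 50.6% of 2301 genes between 200 and 1000. The share was 53.8% of 312 genes between 1000 and 2000, 66.1% of 112 genes between 2000 and 4000, and 72.5% of 40 genes at 4000 or above. In the last class the median absolute log2 ratio was 0.23 at the brighter and 0.36 at the dimmer probe set. The ratios of a pair had the same sign in 1434 of the 2010 genes of the first class and in 36 of the 40 of the last. With the dimmer probe set at 200 or above, the share was 53.8% of 474 genes between 200 and 1000. It was then 59.2% of 179, 69.4% of 62 and 75% of 32 genes in the brighter classes. Without probe sets whose names mark possible shared sequence, 5 genes at 4000 or above were left and 3 of them had the smaller ratio at the brighter probe set. How far saturation of bright signals contributed was not tested, since the files hold summarised intensities without scanner values.

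**Figure D3:**
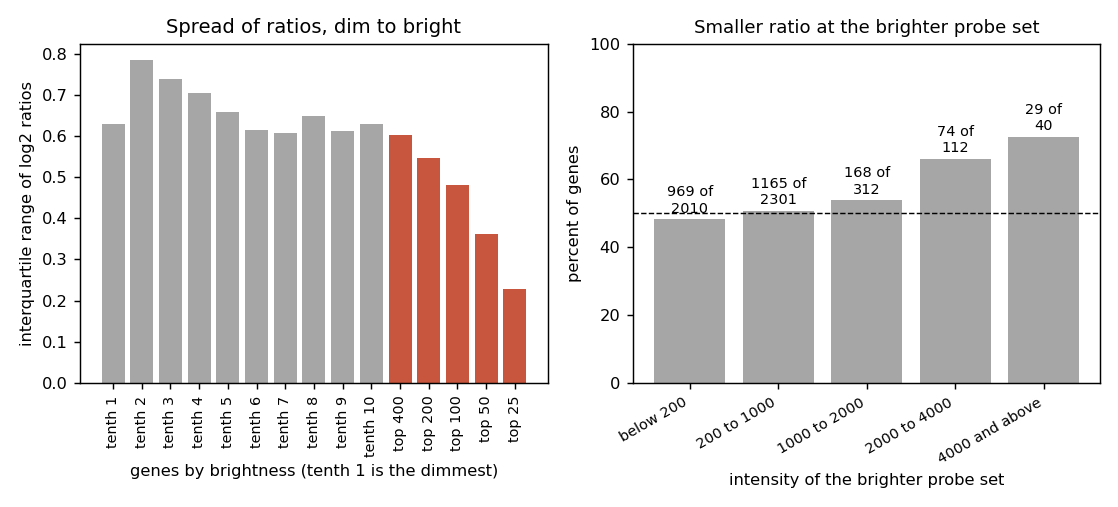
Left, interquartile range of log2 ratios in 10 equal groups of genes from dim to bright (grey) and in the 400 to 25 brightest genes (red), falling to 0.23 for the 25 brightest. Right, percent of genes whose brighter probe set had the smaller absolute log2 ratio, by intensity of that probe set, with the counts printed and a dashed line at 50 percent.

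Genes listed for resident lung cells, with the surfactant genes among them, also had ratios nearer to 0 where they were brighter, mainly at 4000 or above. The surfactant genes and the lists for other type 2, type 1, club, ciliated and endothelial cells held 140 genes above the floor on both arrays. Their median log2 ratio was -0.78 in 32 genes under 200 intensity units, -0.67 in 57 genes from 200 to 1000, -0.65 in 24 genes from 1000 to 2000, -0.61 in 13 genes from 2000 to 4000 and -0.31 in 14 genes at 4000 or above. Spearman's rho between level and ratio was 0.39 over these 140 genes and 0.07 over all 11044, as a description of 2 arrays. The class at 4000 or above holds Sftpa1, Sftpb, Sftpc, Sftpd and Cxcl15, so it in part repeats the surfactant list. Its values ran from -0.55 to 0.03, and those nearest to 0 were Cd74 at 0.03 and Lyz1 at -0.09, both of the other type 2 list. Whether Cd74 and Lyz1 were read from resident cells alone in whole lung was not tested. The classes also differ in cell type, since all ciliated cell genes lay under 2000, and what part of the order goes with brightness and what part with cell type was not tested. Among club cell genes Scgb1a1 was at -0.15, while Cyp4b1, at a lower intensity, went from 3362.4 to 1725.3, -0.90, and Gsta3, dimmer still, from 757.3 to 325.9, -1.16. The order was not strict there. Reg3g, dimmer than Gsta3, was at -0.20, nearer to 0 than the bright Scgb3a2 at -0.55, both named after their values were seen. Spearman's rho between level and ratio was 0.56 over the 22 club cell genes.

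**Figure D4:**
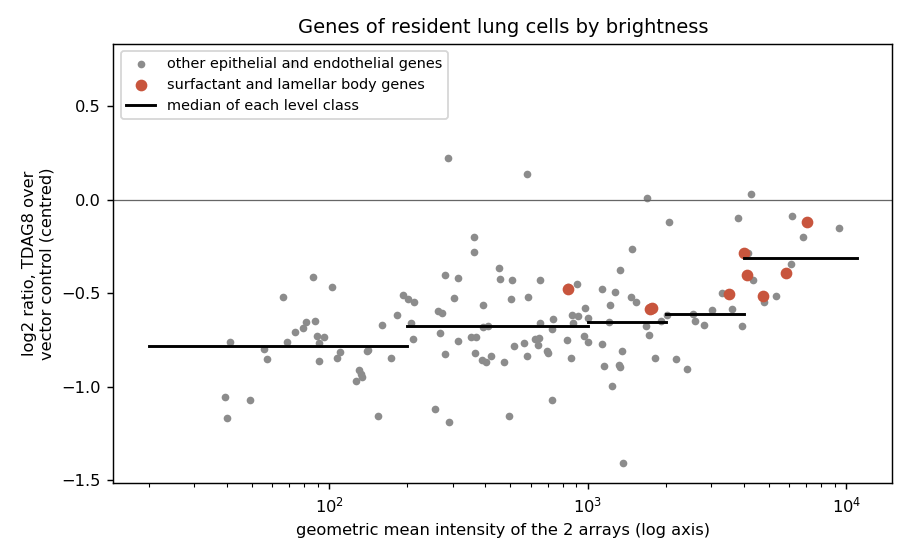
Log2 ratio (vertical) against geometric mean intensity (horizontal log axis) for 140 genes listed for resident lung cells, with the 9 surfactant and lamellar body genes in red and a horizontal bar at the median of each of 5 level classes. The bar lies at -0.78 for the dimmest class and at -0.31 for the brightest.

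The rest of the surfactant pathway was less uniform than the list itself. Of 39 measured other type 2 genes 34 were below 0, against 50.1% of all genes, and the median was -0.53. The 6 of them at 2000 or above had a median of -0.11 and the 33 dimmer ones one of -0.57. Those 6 were Cbr2, Lyz1, Cd74, Scd1, Rnase4 and Fabp5, with values from -0.61 to 0.03. Scd1 and Fabp5 are on the lipid synthesis list too. What part of this contrast goes with brightness and what part with the genes themselves was not tested. Retnla, a resistin-like protein that alternatively activated macrophages make too, went from 2280.8 to 824.8, 2.66-fold lower. The calcium-binding protein gene S100g went from 447.1 to 188.3, 2.28-fold lower, Fgfr2, an epithelial growth factor receptor, was at -0.86 and the phospholipid flippase gene Atp8a1 at -0.85. Cbr2, the brightest of these genes, is also expressed in club cells.

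Regulators of alveolar epithelium were lower by about as much as the surfactant genes, at far lower intensities. Of 30 measured genes 25 were below 0 and 23 at least 1.2-fold lower, against 50.1% and 29.5% of all genes, with a median of -0.55. The epithelial factor Elf5 was at -0.98, Foxp2 at -0.89 and Fgfr2, listed here too, at -0.86, and Nkx2-1 was at -0.75. Hopx, the brightest, went from 5136.5 to 3665.1, -0.43. Sox9, which marks distal epithelial progenitors of the developing mouse lung and is also made by many tumour cells, read 14.6 in the control, under the floor, and 48.5 in the TDAG8 array, at least 1.92-fold higher.

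Genes for processing and trafficking of surfactant had a median of -0.16, with 19 of 29 below 0 and 11 at least 1.2-fold lower, against 50.1% and 29.5% of all genes. With the mean over the probe sets of a gene, those under the floor raised to it, the median was -0.06. Most of these genes serve lysosomes and secretion in all cells. Rab3d, a GTPase of regulated secretion, went from 239.4 to 143.3, -0.68, the ubiquitin ligase gene Nedd4l was at -0.61 and the lysosomal membrane protein gene Scarb2 at -0.56. The palmitoyltransferase gene Zdhhc2 was at 0.78, and the brightest, the annexin gene Anxa2, was at 0.32.

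Surfactant lipid synthesis genes lay on both sides of 0, 22 of 38 below it against 50.1% of all genes, with a median of -0.09. With the dimmest probe set of each gene the median was 0.00066, on the other side of 0. Pla2g1b, a secreted phospholipase A2, went from 159.3 to 75.5, 2.03-fold lower. Cds1, which makes CDP-diacylglycerol, was at -0.95 and Lpin2, a phosphatidate phosphatase, at -0.83. Elovl6, a fatty acid elongase, went the other way, from 64.0 to 134.3, 2.19-fold higher, and the desaturase gene Scd1, the brightest, was at -0.10. Lpcat1, the lipid enzyme on the surfactant list, was not counted here.

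Alveolar macrophages, which depend on GM-CSF, take part in clearing surfactant. Of 27 measured genes listed for this step, read from whole lung and not from macrophages alone, 16 were below 0, against 50.1% of all genes. Their median was -0.22, or -0.08 when shared probe sets were left out. The fatty acid binding protein gene Fabp1 was 2.19-fold lower and the transcription factor gene Bach2 2.04-fold lower, Car4 was at -0.78, and Marco, a scavenger receptor, was 2.16-fold higher. Npc2, a lysosomal cholesterol carrier also made by type 2 cells, was the brightest and was at -0.28.

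Other lung cell types gave medians further from 0 than the surfactant genes did. The medians were -0.63 over 21 type 1 genes, -0.66 over 22 club cell genes, -0.76 over 28 genes of ciliated cells and -0.69 over 27 genes of endothelium, each of these genes being below 0, as were 50.1% of all genes. No test of the difference from the surfactant list was possible with 1 array per group. The type 1 genes had a median level of 907 intensity units, the ciliated cell genes one of 80.1 and the surfactant genes one of 4015. At a geometric mean intensity of 2000 or above, the median was -0.50 over 5 type 1 genes and -0.62 over 10 club cell genes. It was -0.40 over 6 surfactant genes. The single values overlapped, from -0.59 to -0.28, -0.90 to -0.15 and -0.52 to -0.12 in that order. Only 1 endothelial gene, at -0.62, and no ciliated cell gene were that bright. What part of the gap between lists goes with brightness was not tested. Over the 3 genes closest to the middle of the surfactant list in level and ratio on these 2 arrays, the values were -0.43 for Hopx, -0.49 for Mgst1, a microsomal glutathione transferase, and -0.59 for Sec14l3, a lipid transfer protein.

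Proliferation genes, which dividing tumour cells express, and leukocyte genes had medians above 0. All 28 measured proliferation genes were above 0, with a median of 2.23, whereas 50.1% of all genes were below 0. At least 2-fold higher were 26 of the 28, against 5.41% of all genes. The summed intensity of the 28 genes went from 3957 to 13678. Of 21 leukocyte genes 18 were above 0 and 3 below it, against 50.1% of all genes below it. Their median was 0.38, and the sum went from 14255 to 16322. Lyz2, the brightest of these leukocyte genes, made up much of both sums and went the other way, from 6649.8 to 6002.4. The summed intensity of the 9 surfactant and lamellar body genes went from 39188 to 29011. Both columns had a trimmed mean of 100, and the part of RNA from such cells in the result for the surfactant genes was not tested.

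**Figure D5:**
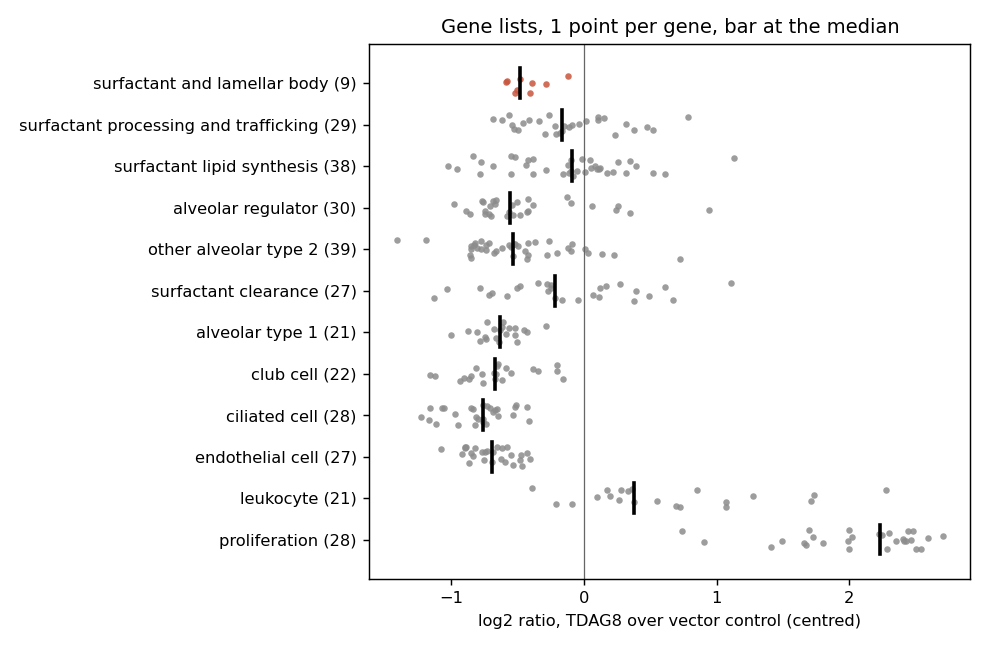
Log2 ratio of TDAG8 over vector control for each measured gene (points) of the surfactant and lamellar body genes (red) and 11 other lists (grey), with a bar at the median and the number of genes in brackets. The red points lie between -0.58 and -0.12, and the leukocyte and proliferation lists have their medians to the right of 0.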

How the data were processed

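The authors deposited intensity values on a linear scale, 1 per probe set and array. Both columns have a trimmed mean of 100 after leaving out 2% at each end, which points to scaling to a common target. Per the labels' protocols, total RNA of 10 mice was pooled for each array and labelled as biotin-cRNA primed from the poly(A) tail. Which software summarised the probes is not stated in the sources used here.

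From 45101 probe sets 64 controls were set aside. Of the other 45037, 34945 had 1 gene symbol in the platform annotation, 932 had several and 9160 none. Genes were named from the first kind only, and 34741 probe sets were matched by gene identifier to RefSeq (GRCm38.p6) for current symbols. Each gene was represented by its brightest probe set (highest mean log2 value). Values under the 50th percentile of each array were raised to it, and ratios against them are bounds. Log2 ratios were centred on the median over 11044 genes above both floors. The column medians differed by -0.11.

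No significance test was run, because each group had 1 array. The script was tested on simulated data. Results were recomputed under 9 other settings and 1 more added after the data were seen. Named genes were the list, in each other list the 4 largest differences and the brightest gene, the 10 brightest others, the 3 nearest genes and Gpr65. Not every gene named so is described for the 4 resident cell lists and the 2 lists of tumour growth and leukocytes, which are given by counts. The genes and lists were chosen with earlier results of these data known, so their direction is no independent evidence. Python 3.11.15, pandas 2.3.3, numpy 2.4.6 and statsmodels 0.14.6 (loess, span 0.3) were used.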

Additional observations from a re-analysis of the deposited data

How the results depend on the processing

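No paired analysis was possible because each group had 1 array. Tried in 10 settings were quantile normalization, no centring, loess centring, floors at the 30th and 65th percentile, an offset in place of the floor, the mean over probe sets, the dimmest probe set, leaving out probe sets that can share sequence, and, added after the data were seen, centring on the 200 genes nearest in level. All 9 genes were below 0 and 8 were at least 1.2-fold lower in each of them, with a median between -0.54 and -0.39. The count of genes at least 1.5-fold lower, 0 in the main setting, was 2 with no centring, quantile normalization, loess centring, the 65th percentile floor or centring on near genes, and 1 with the mean over probe sets. With that mean the list medians were -0.062 for processing and trafficking and -0.42 for regulators, and without shared probe sets -0.082 for clearance. The brightest group had 0.94 times the interquartile range of all genes in the main setting, 0.90 times with the 30th percentile floor and 1.29 times with the mean over probe sets, 1.12 times with the offset and 1.04 times without shared probe sets. With the mean and the offset the range over all genes was itself narrower, at 0.51 and 0.55 against 0.67. The interquartile range of the 50 brightest genes, 0.36, was 0.55 with that mean, and that of the 25 brightest, 0.23, was 0.47 without shared probe sets; these alternatives were added after the data were seen. The lipid synthesis median, -0.09, was 0.00066 with the dimmest probe set. Single genes moved most with the choice of probe set: Lpcat1 to -0.29 and Napsa to -0.81 with the mean, Sftpa1 to -0.55 and Cxcl15 to -0.50 with the dimmest. The mean takes in probe sets under the floor, with their values raised to it. Its shifts are therefore not only differences between probe sets that could be read. With 1 array per group no value has an error.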
